A study of Homo sapiens with 22 samples.

Results

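The interleukin-6 (IL-6) family was followed through RNA-seq of renal proximal tubule epithelial cells (RPTEC), a human kidney epithelial line immortalized with hTERT. Its members here were chosen by name, with earlier results of these data known. They were the ligands IL6, IL11 and LIF, the receptor subunits IL6R, IL6ST, OSMR and LIFR, the transcription factor STAT3 and the feedback inhibitor SOCS3. These 9 genes were all found among the 36859 genes of the deposited table, and all 9 passed the filter on low values, which asked for 10 or more normalized counts in 2 or more libraries.

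The study deleted SETD2, the enzyme that trimethylates lysine 36 of histone H3, and compared the loss of SETD2 with treatment by TGF-β, a ligand that drives epithelial-to-mesenchymal transition. Its paper already names IL6 among the cytokine genes of the expression program that follows SETD2 loss. There were 22 libraries in 11 groups of 2. In media with 2% serum these were untreated wild-type cells (WT), WT given TGF-β at 10 ng/mL for 72 h, the SETD2 knockout lines KO1 and KO2, and a line labelled KO2 rescue. In media with 10% serum these were Rescue1 and Rescue2, which carry lentiviral full-length SETD2 with a FLAG tag, and WT cells transduced with the vector control eGFP or with SOX2, OCT2 or PRRX1. KO1 and KO2 are single clones made with Cas9 and a guide in exon 3 that carry frameshifts on both alleles, and the rescue lines were grown from single colonies of KO cells selected with blasticidin. The transduced WT cells were pools selected with puromycin. All cells share the hTERT background. Serum therefore cannot be told apart from SETD2 re-expression between rescue clones and KO cells, nor from transduction between eGFP and WT. Nothing in the labels says that the duplicates came from separate cultures, so p-values measure only the spread between these libraries.

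Values are normalized counts, recovered from the deposited log2 values, and summed to between 11674491 and 16758645 per library, from roughly 7800000 to 18600000 reads. SETD2 itself had 1956 ± 148 normalized counts (SD, n = 2) in WT, 1088 ± 59.4 in KO1, 1051 ± 1.35 in KO2, 10305 ± 90.9 in Rescue1 and 10105 ± 481 in Rescue2. The libraries labelled KO2 rescue had 827 ± 10.5, below KO2, so their SETD2 mRNA goes against the label. Of 13 tubule and epithelial markers, PAX8 (1535 to 6561), KRT19 (5686 to 18369) and GGT1 (225 to 1091) were present in every library, whereas HNF4A was at 0 in all 22 and LRP2 in 20. Of 5 leukocyte markers, CD3E was at 0 in all 22 libraries, PTPRC reached 20.1 and CD14 13.2, while CD68, which is not restricted to leukocytes, reached 364. Of 4 endothelial markers PECAM1 reached 25.1, CDH5 83.8, VWF 26.3 and KDR 145. KDR and CD68 were not even across groups, and their values are given with the KO and rescue comparisons. Duplicates differed least in SOX2 and most in WT, with a median absolute log2 difference of 0.0605 and 0.159 for genes of at least 1000 normalized counts. These are bulk libraries, in which fewer cells with a transcript and less of it per cell cannot be told apart.

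Cytokines of the IL-6 family act through receptor complexes that share the signal-transducing chain gp130, encoded by IL6ST. IL-6 and IL-11 first bind their own receptor chains, encoded by IL6R and IL11RA, before engaging gp130, while LIF binds the receptor encoded by LIFR and oncostatin M the one encoded by OSMR. The complexes activate JAK kinases, which phosphorylate STAT3. STAT3 then enters the nucleus and turns on target genes, among them SOCS3, whose product blocks the signal at gp130. Cells without membrane IL-6 receptor can respond to IL-6 bound to soluble receptor shed from other cells. mRNA levels, as measured here, do not show phosphorylation or secretion.

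The 250 bases before the annotated start of the MANE Select transcript are given for IL6 and IL11, because they are the ligands that were called in a comparison. They were read from hg38 (GRCh38) with starts of GENCODE release 44, 5′ to 3′ on the strand of the gene. The regions are chr7:22726950-22727199 on the plus strand for IL6 and chr19:55370464-55370713 on the minus strand for IL11. Both strands were searched for the letters TTCNNNGAA (STAT), TGANTCA (AP-1) and GGGNNNNNCC (NF-κB), and capitals mark the matches.
IL6 promoter: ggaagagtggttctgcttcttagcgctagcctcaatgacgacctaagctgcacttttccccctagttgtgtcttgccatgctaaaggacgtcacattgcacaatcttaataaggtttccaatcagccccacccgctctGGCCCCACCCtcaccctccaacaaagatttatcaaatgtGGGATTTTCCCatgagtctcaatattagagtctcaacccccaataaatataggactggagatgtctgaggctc
IL11 promoter: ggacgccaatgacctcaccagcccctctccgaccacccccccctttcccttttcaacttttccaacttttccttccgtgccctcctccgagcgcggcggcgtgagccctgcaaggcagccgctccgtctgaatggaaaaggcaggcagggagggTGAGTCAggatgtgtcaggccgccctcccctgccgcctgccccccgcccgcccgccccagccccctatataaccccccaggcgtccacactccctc

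The STAT letters occurred in 5.58% of the 19060 such promoters and in neither of these. The AP-1 letters occurred in 4.74%, and in IL11 from 96 to 90 bases before the start. The NF-κB letters are loose, occurring in 66.0% of promoters, and gave 3 matches in IL6, of which a pair overlaps as 1 run of capitals, and 0 in IL11. No base was shared between different motifs. These matches describe the sequence and do not show binding.

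IL6 (ENSG00000136244; chromosome 7 from 22725884 to 22732002, plus strand, 5 exons) encodes the founding ligand and varied from 599 to 5092 normalized counts over the 22 libraries. In WT the libraries had 964 and 599, and with TGF-β 1098 and 1406. KO1 had 4751 and 5092, KO2 3037 and 2193, and the libraries labelled KO2 rescue 792 and 842. All 4 KO libraries thus lay above every WT, TGF-β and labelled KO2 rescue library.

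Rescue1 had 1382 and 1287 normalized counts of IL6 and Rescue2 642 and 887. The eGFP libraries had 4208 and 4332, SOX2 4500 and 4223, OCT2 4693 and 3901, and PRRX1 3587 and 3338. The transduced WT cells therefore lay above KO2 and below KO1, and the rescue clones, grown in the same serum, were far below them. In the order of the group means KO1 stood first, and SOX2, OCT2 and eGFP followed with overlapping ranges. At the low end the labelled KO2 rescue, WT and Rescue2 overlapped in turn.

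IL11 (ENSG00000095752; chromosome 19 from 55364382 to 55370463, minus strand, 5 exons) encodes a ligand known in fibrosis and as a target of TGF-β. It had 1096 and 1183 normalized counts with TGF-β, against 253 and 39.0 in WT. The 20 other libraries ranged from 29.1 in the labelled KO2 rescue to 288 in OCT2, so that both TGF-β libraries stood alone at the top. KO1 had 167 and 94 and KO2 69.5 and 50.3, within the wide range of the WT duplicates. Ranges of neighbouring groups overlapped from Rescue1, at 214 and 257, down to Rescue2, at 72.3 and 97.3.

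LIF (ENSG00000128342; chromosome 22 from 30240453 to 30246759, minus strand, 3 exons), the ligand of the LIFR and gp130 complex, was scattered between duplicates. WT had 25.9 and 79.0 normalized counts, TGF-β 205 and 184, and KO1 256 and 104. KO2 had 92.3 and 0, and the labelled KO2 rescue 78.8 and 21.1. An exact 0 beside such a duplicate can be a failed estimate of the transcript, so no mean is given for KO2. The 12 libraries in 10% serum ran from 79.6 to 176.

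**Figure D1:**
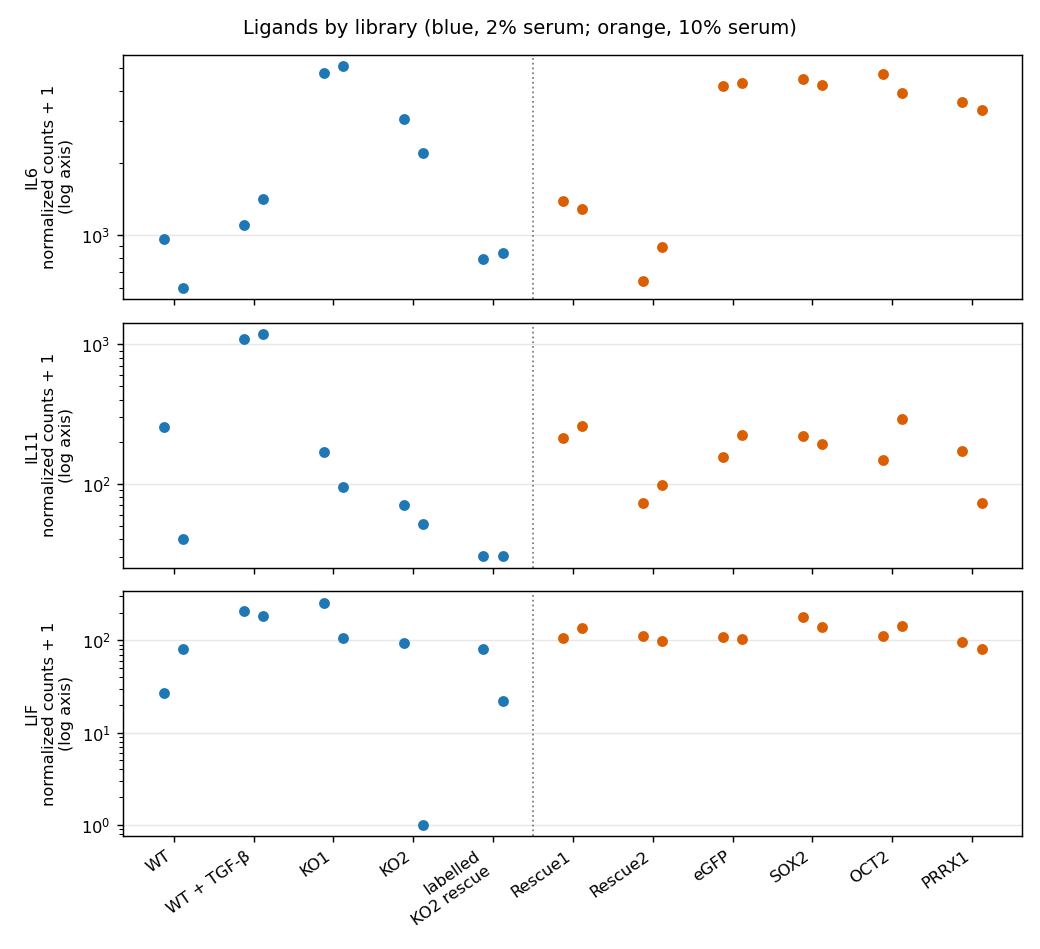
Normalized counts + 1 (log axis) of IL6, IL11 and LIF in each of the 22 libraries, with 2 points per group, blue for 2% serum and orange for 10% serum. IL6 is high in KO1, KO2 and the 4 transduced WT groups, IL11 is highest in both TGF-β libraries (1096 and 1183), and LIF is at 0 in replicate 2 of KO2.

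Among the 4 receptor members IL6ST (ENSG00000134352; chromosome 5 from 55935095 to 55995022, minus strand), the shared gp130, was the most abundant per length. The receptor chain IL11RA, outside the 9 members, was higher on that scale in WT, with a mean of 77.2 against 58.9 normalized counts per kilobase, its libraries at 179 and 86.9 normalized counts. IL6ST ran from 347 in the labelled KO2 rescue to 1366 in SOX2. WT had 405 and 658, KO1 457 and 903, KO2 528 and 611, and the TGF-β libraries 612 and 557. Every group overlapped the next in the order of the means. IL6ST was called in 0 of the 12 planned comparisons, with adjusted p from 0.0876 to 1 and log2 changes of −0.31 to 0.87.

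OSMR (ENSG00000145623; chromosome 5 from 38845858 to 38945596, plus strand), the chain for oncostatin M, had 81.4 and 157 normalized counts in WT. The TGF-β libraries had 66.6 and 59.1, KO2 71.9 and 75.9, and KO1 70.9 and 7.81. The second KO1 library was thus the lowest of all 22. Rescue1 had 116 and 146 and Rescue2 103 and 94.1, above all 4 KO libraries, and eGFP had the highest mean, with 151 and 219.

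LIFR (ENSG00000113594; chromosome 5 from 38474668 to 38608354, minus strand) was listed at 0 in replicate 1 of KO2 beside 126 in its duplicate, and at 0 in replicate 2 of the labelled KO2 rescue beside 234. The 18 libraries of the 9 other groups ran from 71.7 in WT to 293 in PRRX1. LIFR was called in 0 of 12 comparisons (adjusted p 0.196 to 1).

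IL6R (ENSG00000160712; chromosome 1 from 154405193 to 154469450, plus strand), the chain that binds IL-6, was at or near the floor throughout. It was at 0 in 6 libraries and reached 10 normalized counts in 2, with 12.9 in KO1 and 13.6 in PRRX1, each beside a duplicate of 3.90 or 2.14. In WT it had 3.11 and 1.09. Differences at this level were not detectable at this depth, since 3 reads correspond to 2.41 to 4.66 normalized counts, so no fold is given.

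**Figure D2:**
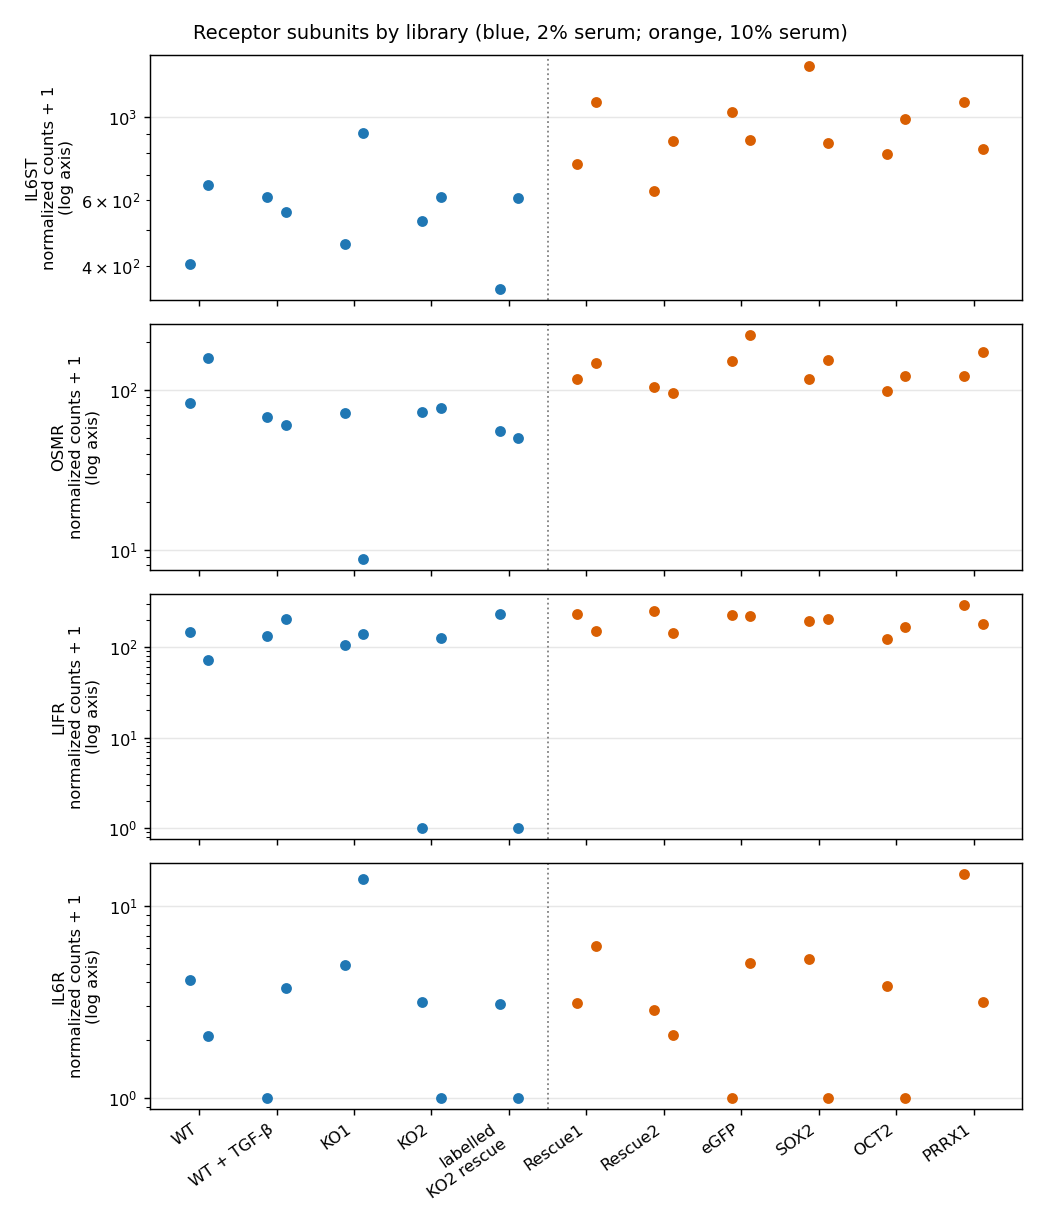
Normalized counts + 1 (log axis) of IL6ST, OSMR, LIFR and IL6R in each library, with 2 points per group, blue for 2% serum and orange for 10% serum. IL6ST lies between 347 and 1366 in every library, IL6R never exceeds 13.6, and isolated low points are OSMR in replicate 2 of KO1 (7.81) and LIFR at 0 in 1 library each of KO2 and the labelled KO2 rescue.

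STAT3 (ENSG00000168610; chromosome 17 from 42313324 to 42388540, minus strand, 24 exons) was abundant and steady, between 3204 and 5521 normalized counts. Both WT libraries were at the top with 4739 and 5521. The TGF-β libraries had 4571 and 4076, KO1 4098 and 4150, and KO2 3967 and 3631. The remaining groups spanned 3204 to 4150. STAT3 mRNA was called in 0 of 12 comparisons, the largest difference being −0.43 in KO2 against WT.

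SOCS3 (ENSG00000184557; chromosome 17 from 78356778 to 78360077, minus strand, 2 exons), the feedback inhibitor, spread much further, from 170 to 3192. WT had 271 and 349 normalized counts, TGF-β 170 and 174, KO1 961 and 900, KO2 492 and 414, and the labelled KO2 rescue 203 and 200. Rescue1 had 882 and 802 and Rescue2 1208 and 1176. The 8 libraries of transduced WT cells had 2471 to 3192, above every other library. Duplicates were close, and among the 7 other groups no ranges of neighbours in the order of means overlapped.

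**Figure D3:**
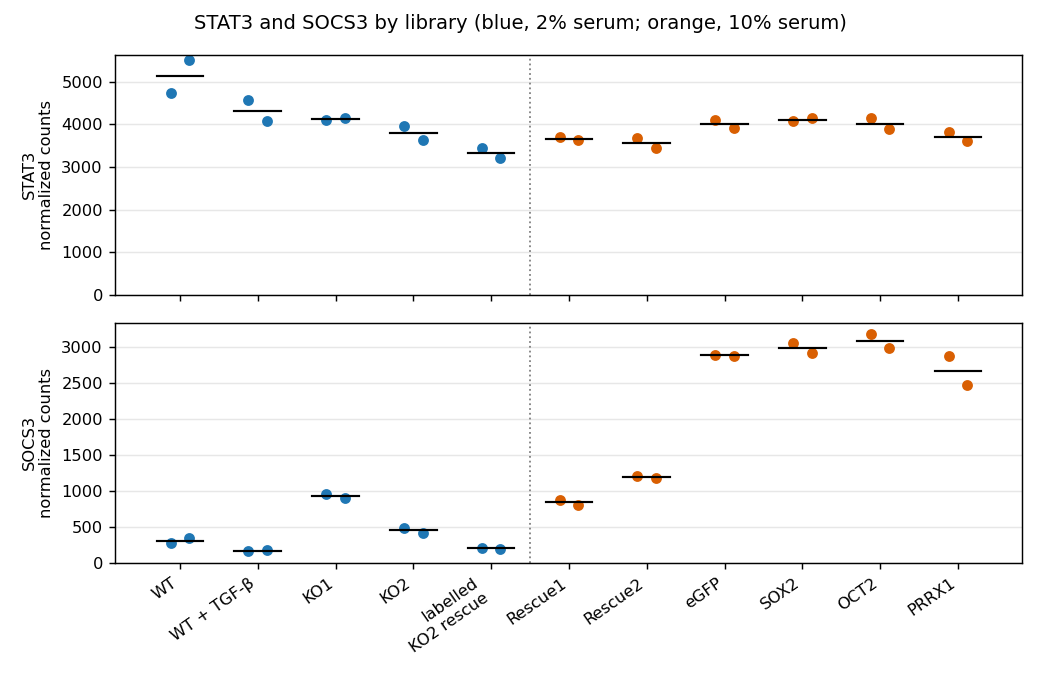
Normalized counts of STAT3 and SOCS3 in each library on linear axes from 0, with 2 points and a line at the mean for each group, blue for 2% serum and orange for 10% serum. STAT3 stays between 3204 and 5521, while SOCS3 is 170 and 174 with TGF-β and 2471 to 3192 in the transduced WT cells.

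Per kilobase of the MANE transcript, the mean WT level was 1042 normalized counts for STAT3 and 694 for IL6. It was 113 for SOCS3, 61.4 for IL11, 58.9 for IL6ST and 21.6 for OSMR. LIF at 13.5, LIFR at 10.4 and IL6R at 0.365 were lower. On this scale the mRNA of the ligand IL6 exceeded that of its own receptor chain in WT, and in KO1 IL6 stood at 4367 per kilobase against 1.46 for IL6R.

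Differences were tested with limma over 14585 genes, and a gene was called when its Benjamini-Hochberg adjusted p was under 0.05 and its log2 change of normalized count + 1 exceeded 1 in size. All comparisons against WT share the same WT libraries, and those against eGFP the same eGFP libraries.

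TGF-β treatment raised IL11 and no other member of the family past both thresholds. The log2 change of IL11 was 3.50 (SE 0.64, adjusted p = 0.00133), and its normalized counts were 146 ± 151 in WT and 1140 ± 61.9 with TGF-β (SD, n = 2). Log2 changes were taken between means of log2(normalized count + 1), so they need not equal the log2 ratio of these means. Thus 1 of 9 members was called (11.1%), beside 7.84% of all genes. IL6 was higher by 0.71 (SE 0.21, adjusted p = 0.0276), and SOCS3 and STAT3 were lower, with −0.84 (SE 0.12, adjusted p = 1.7e-04) and −0.24 (adjusted p = 0.0485), all below the threshold on fold change. The WT duplicates decided some of this: without replicate 1 of WT, IL6 at 1.05 and SOCS3 at −1.02 were also called. IL11 ranged from 2.17 to 4.83 with each library left out and stayed called. In a fit of these 4 libraries alone its adjusted p was 0.196, but that fit called 0 genes among all tested.

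Of the wider pathway list, 47 genes were named and 35 tested, and with TGF-β 4 were higher and 4 lower, where 3.58% of all genes were higher and 4.26% lower (7.84% called). Among those of largest size, CEBPD, a transcription factor of the acute phase response and STAT3 target, fell by 2.59 on the log2 scale. CCND1, the cyclin of early cell cycle entry, rose by 1.82. The chemokine CCL2 rose by 1.74, PIAS3, an inhibitor of STAT3, by 1.28 and the angiogenic factor VEGFA by 1.14. Among 16 tested STAT3 target genes 3 rose and 2 fell, with a median log2 change of 0.07.

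In KO1 against WT, the question being the effect of SETD2 loss, IL6 and SOCS3 rose and OSMR fell. IL6 went from 782 ± 258 to 4921 ± 241 normalized counts, a log2 difference of 2.69 (SE 0.21, adjusted p = 7.6e-08). SOCS3 went from 310 ± 55.0 to 931 ± 43.5, a log2 difference of 1.59 (SE 0.12, adjusted p = 5.5e-08). OSMR changed by −2.18 (SE 0.65, adjusted p = 0.015), a value that rests on the second KO1 library, since without it the change was −0.67 (adjusted p = 0.217), and without replicate 2 of WT it was −1.71 (adjusted p = 0.12). In a fit of the 4 libraries alone its adjusted p was 0.32. With 3 of 9 members called (33.3%), beside 25.0% of all genes, the share of the family was near the background. STAT3 was −0.31 (adjusted p = 0.00628). IL11 at 0.33 (adjusted p = 0.731) depended on WT, being 1.66 (adjusted p = 0.0218) without replicate 1 of WT and −1.01 (adjusted p = 0.15) without replicate 2.

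KO2 against WT gave the same direction for IL6 and SOCS3 with smaller values. IL6 reached 2615 ± 597, a log2 difference of 1.76 (SE 0.21, adjusted p = 1.1e-05). SOCS3 reached 453 ± 55.1, a log2 difference of 0.55 (SE 0.12, adjusted p = 0.00233), below the threshold on fold change, and STAT3 was −0.43 (SE 0.08, adjusted p = 7.8e-04). Thus 1 of 9 members was called (11.1%), beside 16.3% of all genes. IL11 was −0.74 (adjusted p = 0.44), but −2.08 and called without replicate 2 of WT and 0.59 without replicate 1. LIF was −2.26 (adjusted p = 0.244), and swung from −5.54, called, to 1.01 when either KO2 library was left out.

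The difference between the clones was tested directly. SOCS3 was higher in KO1 than in KO2 by 1.04 (SE 0.12, adjusted p = 3.3e-05), just past the fold threshold. That call was lost without replicate 1 of KO1 (0.99) or replicate 2 of KO2 (0.92). In a fit of the 4 libraries alone the adjusted p of SOCS3 was 0.071, but that fit called only 1 gene among all tested. IL6 was higher by 0.93 (SE 0.21, adjusted p = 0.00676) and became called at 1.16 without replicate 1 of KO2, whereas OSMR at −1.57 (adjusted p = 0.121) became called at −3.09 without replicate 1 of KO1. LIF at 4.09 (adjusted p = 0.0535) rested on the 0 in KO2, being 0.82 without that library and 7.36, called, without its duplicate. In all 1 of 9 members was called (11.1%), beside 6.97% of all genes.

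Markers of other cell types moved with the KO clones as well. KDR had 123 and 103 normalized counts in KO1 and 145 and 126 in KO2, against 0.770 and 0 in WT, and its 4-gene endothelial list summed to between 125.5 and 154.5 in KO against 4.99 and 40.3 in WT, while CDH5 was at 0 in all 4 KO libraries and PECAM1 in 3. CD68 had 364 and 210 in KO1 and 190 and 145 in KO2, against 147 and 106 in WT. It made up nearly all of the leukocyte sum, which was 148 to 371 in KO and 106 and 147 in WT, with CD3E at 0 throughout. The tubule and epithelial list summed to 38967 and 43403 in WT and to between 18690 and 27797 in KO. It summed to 26289 and 28073 in eGFP. The genes of the list did not move together. KRT8, KRT19, EPCAM and CDH1 were lower in KO than in WT, and PAX8, CUBN and ANPEP were higher. PAX8 had 2322 and 3743 in WT and 5056 to 6561 in KO. The other genes of the list overlapped between KO and WT or stayed near 0. The part of these markers in the changes of IL6 and SOCS3 was not tested.

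Across the pathway list of 35 tested genes, 12 rose and 5 fell in KO1, and 6 rose and 2 fell in KO2. Of all 14585 genes 1744 rose and 1909 fell in KO1 (25.0% called), and 9.02% rose and 7.29% fell in KO2 (16.3% called). Of the 16 STAT3 target genes tested, 8 rose and 3 fell in KO1, with a median log2 change of 1.07, and 5 rose and 2 fell in KO2, with a median of 0.15. CCL2 rose from 1456 and 681 normalized counts in WT to 19293 and 16913 in KO1 and to 8737 and 7623 in KO2 (log2 changes 4.18 and 3.03). BCL6, a transcriptional repressor, rose by 3.81 and 2.06. PIM1, a survival kinase, was at 0 in both WT libraries and had 73.0 and 12.4 in KO1 and 20.6 and 23.6 in KO2.

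SOCS1, a sister inhibitor of JAK kinases, rose with log2 differences of 3.78 in KO1 and 2.96 in KO2. CEBPB, a transcription factor downstream of IL-6, rose by 3.08 in KO1 and 2.04 in KO2. MYC moved the other way, from 1058 and 1149 in WT to 92.6 and 92.2 in KO2, a log2 difference of −3.56. In KO1 it had 165 and 206, a log2 difference of −2.58. In KO1 the inhibitors SOCS2 and CISH, known chiefly as STAT5 targets, had log2 changes of −3.98 and −4.22. IL31RA, a receptor chain related to gp130, was at 0 in both WT libraries and had 79.8 and 78.4 in KO1. Between the clones 6 genes of the list were higher and 2 lower in KO1, where 2.48% of all genes were higher and 4.49% lower, and SOCS2 (−3.54) and CISH (−3.06) differed most.

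The KO clones were next set against TGF-β-treated WT cells, which received the same serum. IL6 and SOCS3 were higher in KO, by 1.52 (SE 0.18, adjusted p = 8.3e-06) and 1.91 (SE 0.10, adjusted p = 1.5e-09), and IL11 was lower, with −3.71 (SE 0.55, adjusted p = 8.3e-05). With 3 of 9 called (33.3%), beside 20.2% of all genes, each ligand call was kept with every library left out in turn. For OSMR, −0.55 over both clones, the value was −1.31 and called without replicate 1 of KO1 and 0.20 without replicate 2. LIF at −2.29 (adjusted p = 0.147) became called, at −3.93, without replicate 1 of KO2 and, at −4.34, for KO2 alone. On the pathway list 10 genes were higher in KO and 5 lower, where 10.3% of all genes were higher and 9.83% lower. KDR was at 0 in both TGF-β libraries and CD68 had 52.6 and 43.1 there. CEBPD at 4.22 and SOCS1 at 2.62 were higher, GADD45B, a stress gene, at −4.34 and MYC at −3.20 were lower, and PIM1 and IL31RA were also called higher.

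Re-expression of SETD2 was examined by setting the mean of both rescue clones against the mean of both KO clones. IL6 was lower in the rescue clones, with a log2 difference of −1.83 (SE 0.15, adjusted p = 9.3e-08), and this call was kept with either rescue clone, either KO clone and every library left out. SOCS3 did not follow it. It was higher in the rescue clones by 0.63 (SE 0.08, adjusted p = 2.2e-05), below the threshold on fold change, and by 1.15, called, against KO2 alone. OSMR was higher by 1.39 (SE 0.46, adjusted p = 0.0225). That call was lost against KO2 alone (0.61, adjusted p = 0.452), for Rescue2 alone (adjusted p = 0.112), and without replicate 2 of KO1 (0.64), replicate 1 of KO2 (1.38), replicate 2 of Rescue1 (1.31) or replicate 1 of Rescue2 (1.36), and in a fit of these 8 libraries alone (adjusted p = 0.142). LIF at 1.49 (adjusted p = 0.222) was called at 3.13 without replicate 1 of KO2 and at 3.54 against KO2 alone. In all 2 of 9 members were called (22.2%), beside 23.3% of all genes.

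On the pathway list of 35 tested genes 6 were higher and 8 lower in the rescue clones than in KO, where 11.3% of all genes were higher and 11.9% lower (23.3% called). KDR had 4.19 and 42.0 normalized counts in Rescue1 and 1.62 and 3.91 in Rescue2, below all 4 KO libraries, and CD68 did not exceed 36.8 in the rescue clones. The endothelial list summed to between 8.77 and 126 in the rescue clones, with CDH5 at 68.7 and 83.8 in Rescue1 and PECAM1 at 0 in all 4, the leukocyte list to at most 56.9 and the tubule and epithelial list to between 41450 and 45226. Within the last list KRT8 had 22164 to 25190 in the rescue clones, above WT with 15741 and 16325. EPCAM had 438 and 447 in Rescue1 and 688 and 691 in Rescue2, below WT with 3050 and 2764. The part of these markers in the change of IL6 was not tested. MYC had 2394 and 2469 normalized counts in Rescue1 and 2229 and 1336 in Rescue2, a log2 difference of 3.96. SOCS2 (3.06) and CISH (1.83) were higher, and CCL2 (−2.41), BCL6 (−2.11) and CEBPB (−1.96) lower. The CISH value rests on KO1, with 12.7 and 1.89 normalized counts. KO2 had 58.3 and 45.4, overlapping Rescue1 (61.8 and 68.6) and Rescue2 (55.0 and 70.9). SOCS2 had 13.4 and 6.95 in KO1 and 112.5 and 134.5 in KO2, below the rescue clones at 282 to 363. Of the 16 STAT3 target genes 3 were higher and 7 lower, with a median of −0.62.

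Against eGFP, which had the same serum, IL6 in the rescue clones was lower with −2.09 (SE 0.18, adjusted p = 6.5e-07) and SOCS3 with −1.53 (SE 0.10, adjusted p = 5.0e-08). Both calls were kept for each rescue clone alone and with each library left out, and 2 of 9 members were called (22.2%), beside 13.1% of all genes. The other 7 members were not called. On the pathway list 4 genes were higher and 4 lower, where 6.47% of all genes were higher and 6.66% lower. CCL2 was higher in the rescue clones (2.99), as were STAT5A (1.85), SOCS2 (1.56) and CCND1 (1.17), while MCL1, a survival factor of the BCL2 family, and CEBPD were lower (−2.21 and −2.02). The rescue clones come from KO cells and the eGFP cells from WT, so clone history and SETD2 cannot be told apart here.

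The rescue clones themselves were compared after their values had been seen. IL6 was 1335 ± 67.6 in Rescue1 and 765 ± 173 in Rescue2 (log2 difference 0.82, adjusted p = 0.074), and SOCS3 was in the opposite order (−0.50, adjusted p = 0.0522). Limma called 0 of 9 members, beside 0.994% of all genes, and 3 members (IL6, IL11 and SOCS3) passed an unadjusted p of 0.05.

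In the libraries labelled KO2 rescue, which had the same serum as KO2, IL6 was 817 ± 35.5 against 2615 ± 597 in KO2, a log2 difference of −1.66 (SE 0.21, adjusted p = 8.3e-05). SOCS3 was 202 ± 2.33 against 453 ± 55.1, a log2 difference of −1.16 (SE 0.12, adjusted p = 1.1e-05). The 2 of 9 members called (22.2%) stand beside 4.17% of all genes. Since SETD2 mRNA was not raised in these libraries, the comparison is between labelled lines and no direction of SETD2 is drawn from it. LIF at 2.12 (adjusted p = 0.419) was 5.39 and called without replicate 1 of KO2 and −1.15 without replicate 2. On the pathway list 2 genes were higher, MYC (3.19) and SOCS2 (1.88), and 4 lower, BCL6 (−2.88), CCL2 (−1.93), CEBPB (−1.39) and CEBPD (−1.17). Over all genes 1.65% were higher and 2.52% lower. KDR did not exceed 8.11 and CD68 was 30.6 and 2.54 in the labelled KO2 rescue, below both KO2 libraries, and their part was not tested.

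The vector control cells differed from WT in IL6 and SOCS3 as well. In eGFP against WT, which differ in both serum and transduction, IL6 was higher by 2.49 (SE 0.21, adjusted p = 6.4e-07). SOCS3 was higher by 3.23 (SE 0.12, adjusted p = 9.7e-11), the largest change of SOCS3 in the 12 planned comparisons. STAT3 was −0.35 (adjusted p = 0.00409). IL11 at 0.89 (adjusted p = 0.353) was called, at 2.23, without replicate 1 of WT. Thus 2 of 9 members were called (22.2%), beside 12.7% of all genes. On the pathway list 8 genes rose and 3 fell, where 6.49% of all genes rose and 6.24% fell. Of the 16 STAT3 target genes 6 rose and 1 fell, with a median log2 change of 0.35. KDR was at 0 in both eGFP libraries. MCL1 went from 63.0 and 140 normalized counts to 958 and 1155 (3.47), STAT5A fell by 2.91 on the log2 scale, and CEBPD and SOCS1 rose by 2.19 and 2.06. IL31RA (77.8 and 48.2 in eGFP) and PIM1 (37.1 and 59.9) were at 0 in WT.

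SOX2, OCT2 and PRRX1 were each set against eGFP to ask what the transcription factor added. For the 7 members other than IL6R and LIFR the log2 changes ran from −0.44 to 0.56 with SOX2, from −0.74 to 0.25 with OCT2 and from −0.75 to 0.00 with PRRX1. IL6 differed by 0.03, 0.00 and −0.30 (SE 0.21 each), and SOCS3 by 0.05, 0.10 and −0.11 (SE 0.12 each). Limma called 0 of 9 members in each, and 0 of 9 passed an unadjusted p of 0.05. The calls over all genes were 0.0206%, 0.0343% and 0.0411%, so these comparisons called almost nothing. On the pathway list 0 of 35 were called in each.

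**Figure D4:**
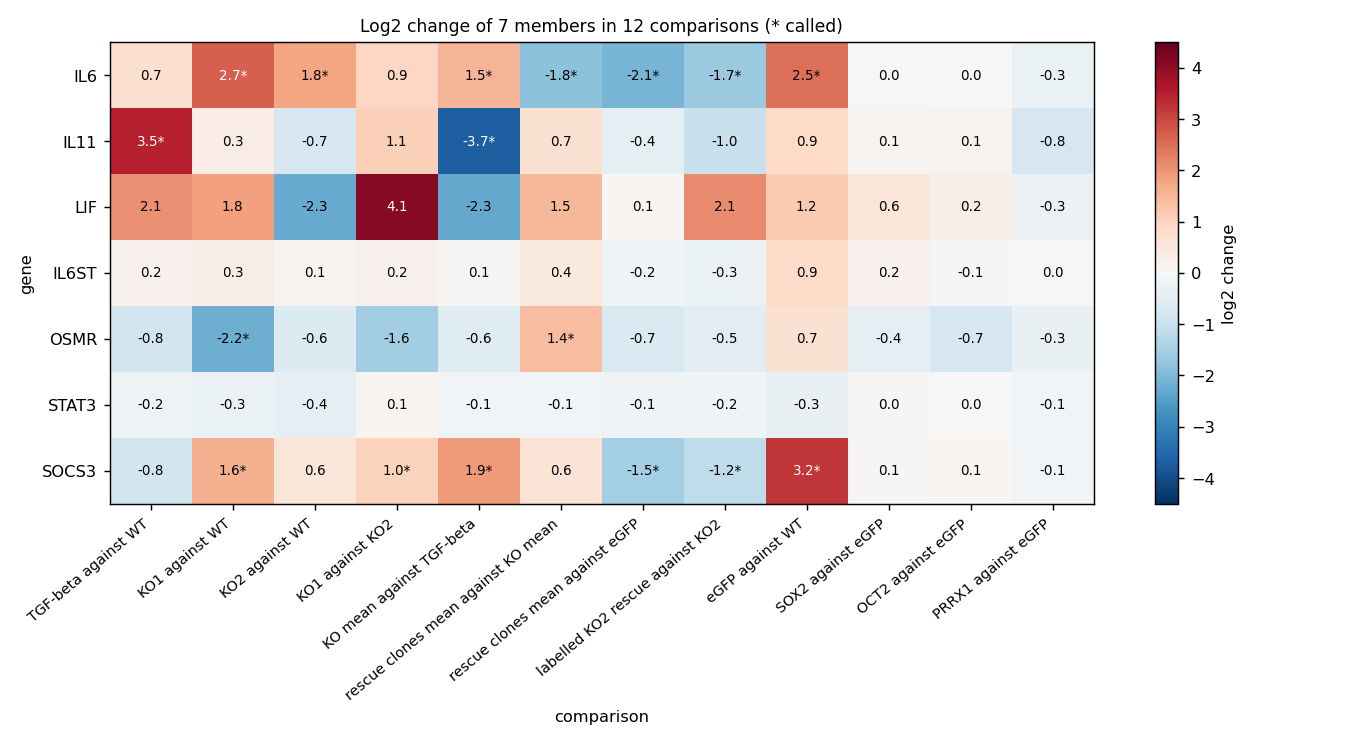
Log2 change of normalized count + 1 (colour and number) for 7 members (rows) in the 12 planned comparisons (columns), with an asterisk where the gene was called. IL6 is called in 7 columns and SOCS3 in 6, IL11 in the TGF-β column and the KO against TGF-β column, and no member in the last 3 columns.

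Over the 12 planned comparisons IL6 was called higher in 4 and lower in 3, SOCS3 higher in 4 and lower in 2, and IL11 and OSMR higher in 1 and lower in 1 each. LIF, IL6R, IL6ST, LIFR and STAT3 were called in 0. IL6 and SOCS3 changed with the same sign in KO1, KO2 and eGFP against WT, in the labelled KO2 rescue against KO2 and in the rescue clones against eGFP, whereas with TGF-β and in the rescue clones against KO the signs were opposite. The comparisons share reference libraries, so these counts are not independent.

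Other parts of the signalling chain were looked up in the same list. Of the other ligands, OSM was at 0 in 21 of the 22 libraries and 2.97 in the remaining one, CLCF1 did not exceed 37.5 and CTF1, IL27 and EBI3 did not exceed 5.43. CNTF, IL27RA and JUNB were not analysed here. The IL-11 receptor chain IL11RA was present in all libraries at 78.1 to 179 normalized counts, and CNTFR reached 12.8, in KO1. TYK2 had 815 to 2083 and JAK2 212 to 402, while JAK1 was low and scattered, with 4.25 and 139 in the WT duplicates.

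**Figure D5:**
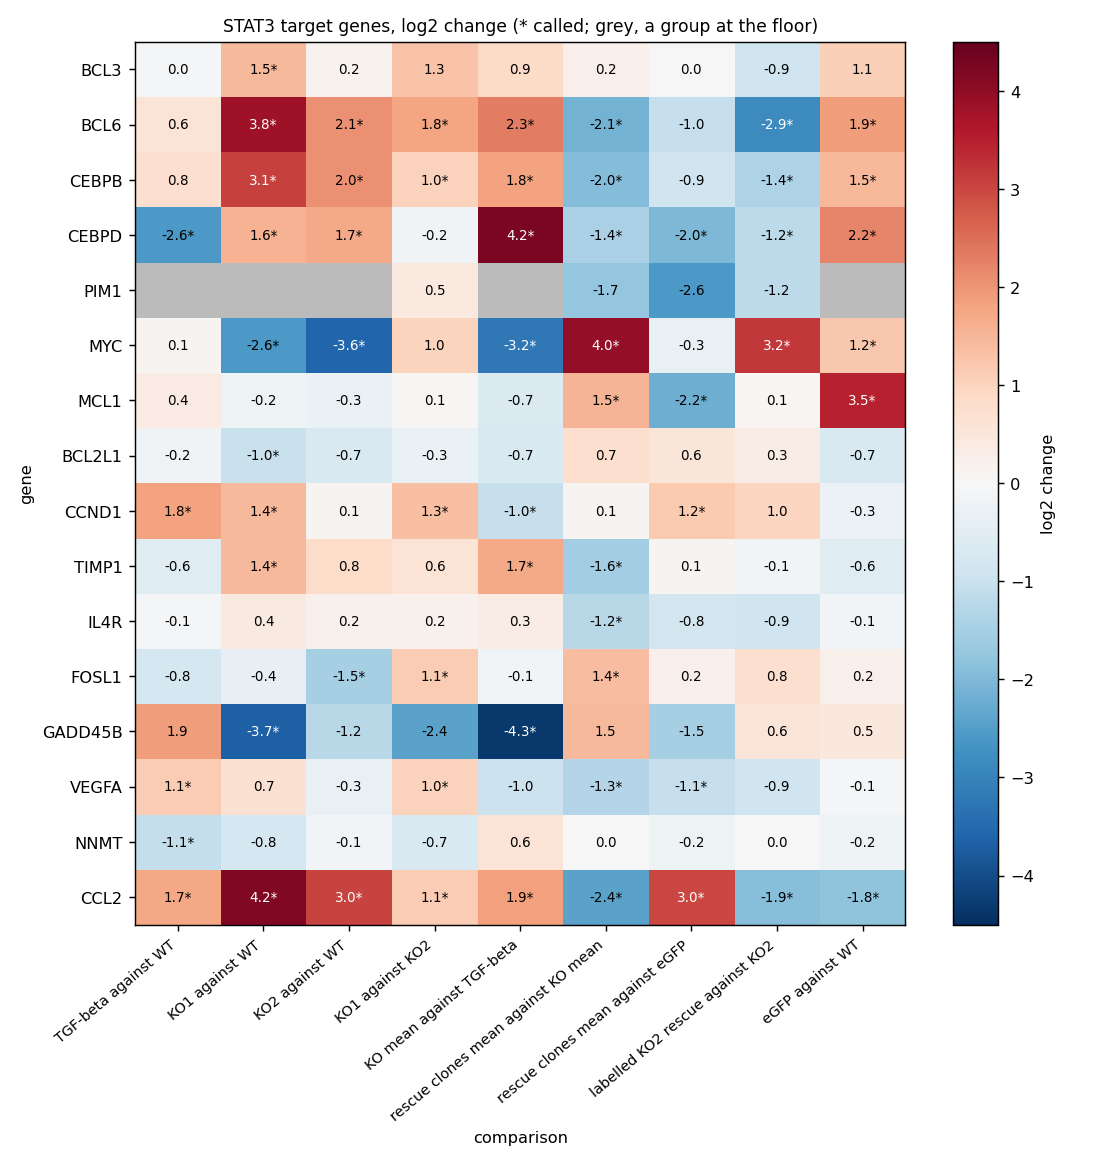
Log2 change (colour and number) of the 16 tested STAT3 target genes (rows) in 9 comparisons (columns), with an asterisk where called and grey where a group did not exceed 3 normalized counts in either library. CEBPB, BCL6, CEBPD and CCL2 are higher in both KO clones than in WT and lower in the rescue clones than in KO, and MYC is the reverse. In eGFP against WT, CEBPB, BCL6, CEBPD and MYC are called higher and CCL2 lower.

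The genes whose group means followed each member most closely were listed over the 11 groups, by Pearson r of mean log2(normalized count + 1), as a description. For IL6 these were NFKBIA (0.983), FNDC3B (0.975) and XBP1 (0.975). For SOCS3 they were RBM17 (0.985), KLHL15 (0.971) and ETF1 (0.970), and for IL11 RGS19 (0.933), RFX1 (0.923) and SHROOM4 (0.920). Nearest to STAT3 was IFT122 (0.952), to IL6ST ZFX (0.957), to OSMR MPHOSPH9 (0.988), to LIF RAB30 (0.932) and to LIFR AAK1 (0.969). The 11 points share the fit and scaling of the same libraries.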

How the data were processed

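RNA-seq libraries (TruSeq Stranded mRNA, NovaSeq, paired reads) of 11 groups were quantified by the authors with salmon (1.9.0 per the labels' processing notes) against GRCh38 cDNA from Ensembl release 94. Differential analysis used deseq2 (1.26.0). The authors deposited log2 values for 36859 genes, whose transformation the sources used here do not state. All 22 libraries share the lowest value 11.32, so the values were read as variance-stabilized log2 counts and were inverted to normalized counts. Rounding to reads was not done, and the read totals are approximate, from the step between small values.

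Groups follow the labels. Differential expression was tested with limma (3.58.1, R 4.3.3) with a variance trend on log2(normalized count + 1), pseudocount 1, in 1 fit of 22 libraries with group means and without covariates, on the 14585 genes that reached 10 normalized counts in 2 libraries or more. P-values were adjusted by Benjamini-Hochberg within a comparison. The plan assumed linear normalized counts, and its test was kept after inversion. KO or rescue without a number means the mean of both clones.

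Symbols, positions and transcript lengths came from GENCODE release 44, and promoters from hg38. The members and gene lists were chosen with earlier results of these data known. All members are named, with pathway genes called in a comparison, at most 6 by size of change, and the 3 genes nearest each member by correlation, of which some are not printed. Pathway genes named for 1 KO clone against WT are also given for the other clone where called there. Some single results are not reported here. The fit was tested on simulated data. As alternatives, the pseudocount was set to 0.5 or 5, the filter was dropped or replaced by a mean of 50 normalized counts, and the fit was repeated with quantile normalization, equal totals, the deposited log2 values, only the groups compared, a replicate block, single clones, and each library left out. Python 3.11.15, numpy 2.4.6, pandas 2.3.3, matplotlib 3.10.9 and data.table (1.17.8) were used.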

Additional observations from a re-analysis of the deposited data

Results flagged for a closer look

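SOCS3 differed between the KO clones, with a log2 change of 1.04 in KO1 against KO2 (limma, SE 0.12, adjusted p = 3.3e-05), after changes from WT of 1.59 and 0.55. It was picked out because the difference between the clones' effects passed a direct test, and both KO1 libraries (961 and 900 normalized counts) lay above both KO2 libraries (492 and 414). The call was lost without replicate 1 of KO1 (0.99) or replicate 2 of KO2 (0.92), and under equal totals (0.86). With 2 libraries per group no test for a single deviating library could be made.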

How the results depend on the processing

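Depth limits IL6R, which stayed near the floor, and exact zeros beside counted duplicates limit LIF and LIFR, since 0.492 to 2.02% of genes with at least 50 normalized counts in a library of a group were at 0 in its duplicate. Scaling every library to the same total moved the median log2 change of all genes by −0.39 in KO1, −0.20 in KO2 and −0.20 with TGF-β against WT, −0.21 between the KO clones, and 0.37 between rescue and KO, and other scalings moved it less. The numbers of members called were 2 with TGF-β (SOCS3 joining at −1.07), 0 between the clones (SOCS3 at 0.86) under equal totals, and 2 between the clones, where LIF joined, with a pseudocount of 5 or a mean of at least 50. On the deposited log2 values, which compress folds by construction, 1 member was called in KO1 against WT. The count was 0 in TGF-β, KO2 and eGFP against WT, between the KO clones and in KO against TGF-β. It was also 0 in rescue against KO, in rescue against eGFP and in the labelled KO2 rescue. Over all genes this setting called 178 in KO1 against WT. In the other comparisons just named it called from 23 (between the clones) to 134 (KO against TGF-β). With so few genes called, these counts do not set the members apart from other genes. A fit of the compared groups alone leaves fewer libraries to estimate the spread. There 0 members were called with TGF-β (2 at an unadjusted p under 0.05) and 0 between the clones (1 at an unadjusted p). In rescue against KO 1 member was called. Over all genes these fits called 0 with TGF-β, 1 between the clones and 2946 in rescue against KO. The member counts of 0 with TGF-β and between the clones therefore say nothing particular to the family. SOCS3 in rescue against KO was called, at 1.02, under equal totals. With Rescue2 alone 1 was called against KO.

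Signs turned for values that were not called. STAT3 in rescue against KO was 0.02 under quantile normalization and 0.26 under equal totals (adjusted p = 0.00261). Equal totals turned IL6ST to −0.06 with TGF-β, −0.09 in KO1, −0.09 in KO2 and −0.03 in KO against TGF-β, IL11 in KO1 to −0.08, and STAT3 between the clones to −0.06. With KO1 alone LIF in rescue against KO was −0.55. With KO2 alone IL6ST and OSMR against TGF-β were −0.04 and 0.23. With Rescue1 alone IL11 against eGFP was 0.33, and with Rescue2 alone IL11 against KO was −0.04 and LIF against eGFP −0.02. The cause was not tested.

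With each library left out, the members called ranged from 1 to 3 with TGF-β, 1 to 2 in KO2, 1 to 3 between the clones, 1 to 3 in rescue against KO, 2 to 4 in KO1, 3 to 4 in KO against TGF-β, 2 to 3 in eGFP and 2 to 3 in the labelled KO2 rescue. The count stayed at 2 in rescue against eGFP. IL6ST ranged from −0.17 to 0.53 with TGF-β, −0.18 to 0.81 in KO1, −0.21 to 0.49 in KO2, −0.31 to 0.67 between the clones, −0.20 to 0.29 in KO against TGF-β and −0.71 to 0.09 in the labelled KO2 rescue. IL11 ranged from −1.01 to 1.66 in KO1, −2.08 to 0.59 in KO2 and −0.44 to 2.23 in eGFP. LIF ranged from −5.54 to 1.01 in KO2, −0.14 to 3.13 in rescue against KO and −1.15 to 5.39 in the labelled KO2 rescue, and OSMR from −1.31 to 0.20 in KO against TGF-β.

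The replicate block left the members called at 1 with TGF-β, 3 in KO1, 1 in KO2, 1 between the clones, 3 in KO against TGF-β, 2 in each rescue comparison and in eGFP, and 0 elsewhere. Deviations of same-numbered libraries correlated from −0.0823 to 0.0475 over 55 pairs of groups, so the numbers do not pair the libraries. Of 686 values of single members under the alternatives other than leaving out a library, 642 kept their direction and their side of the threshold. Most values were not called in the main fit and were counted as kept while uncalled with the same sign, so these totals do not measure how stable the calls were. Of the rest, 23 lost a call, 7 gained one and 14 changed sign. Of 336 values with a library left out 299 did so, while 16 changed sign, 13 gained a call and 8 lost one.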
